A study of Mus musculus with 2 samples.

Results

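Neutrophils in libraries of the mouse aortic arch were chosen by the RNA of single barcodes, and 87 of 8155 kept cells were members, 78 of them ND and 9 HFD. A barcode was a member if it had at least 200 genes, at least 200 UMIs (counted RNA molecules) and at most 30% of UMIs from mitochondrial genes, if S100a8 and S100a9 together held at least 3% of its UMIs, and if at least 2 of Retnlg, Lcn2, G0s2, Hdc, Csf3r and Trem1 had a UMI. These 8 genes therefore describe the members and support nothing about them. The ND (control) library came from Apoe-/- mice on a normal diet and the HFD library from Apoe-/- mice on a high-fat, high-cholesterol (Western) diet, for about 12 weeks from weaning, in male C57BL/6 animals aged 16 weeks. Both groups lack Apoe, so neither is a wild-type control, and each library is the pooled aortas of 2 mice, perfused with saline to wash out blood before the arch was digested with enzymes. With 1 library per diet there was no replicate, no difference between diets was tested, and diet cannot be told apart from any other difference between the libraries. Intervals in parentheses are exact at 95% and cover counting error only. They treat UMIs as independent, although the UMIs of the HFD library come from 9 cells.

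Neutrophils are short-lived granulocytes that leave the bone marrow with their granules already filled. Granule proteins such as cathelicidin and lactoferrin are made from RNA of precursors in the marrow, and the mature cell loses most of this RNA. S100a8 and S100a9, the calprotectin subunits, are abundant along this course, and stimulated cells make cytokines such as interleukin-1 beta. In atherosclerosis they adhere to the inflamed vessel wall. They carry little RNA, so that a limit on depth or on mitochondrial RNA can remove them from a single-cell library.

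The levels of the genes that chose the members are given first, as a description. S100a8 (ENSMUSG00000056054, chromosome 3, 90669071 to 90670034, GRCm38.p6) ran over cells from 5682 CPM (UMIs of the gene per 1000000 UMIs of the cell), through a median of 54033 to 230389 in ND, and from 16183 through 72876 to 125226 in HFD, so the 9 HFD cells lay within the ND range. Summed over the members, it was at 77404 (76225 to 78596) CPM in ND and 64531 (62022 to 67116) CPM in HFD. S100a9 was at 70853 and 65204 CPM. Retnlg, which encodes a resistin-like secreted protein, had UMIs in 67 of 78 ND members and in 9 of 9 HFD members, at 3981 (3718 to 4259) and 4687 (4029 to 5422) CPM. Lcn2, which encodes the iron-withholding protein lipocalin 2, had UMIs in only 49 and 7 of them. Hdc, the histidine decarboxylase gene, was found in 77 and 9 members, and Csf3r, the receptor for G-CSF, in 74 and 8.

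Cells that are not members are low in S100a8 and S100a9 by the rule itself, so their levels are given only for scale. In monocytes, defined here by UMIs of at least 3 of Ly6c2, Plac8, F13a1, Ccr2 and Ms4a6c and by low C1q, S100a8 was at 13.8 CPM in ND and 245 CPM in HFD, over 60 and 53 cells. The HFD monocytes included a cell with 2.02% of its UMIs from S100a8 and S100a9, below the limit of the rule. In macrophages, defined by C1q genes with Csf1r or Adgre1, S100a8 was at 8.25 CPM over 351 ND cells and 20.3 CPM over 468 HFD cells. A UMI of S100a8 was present in 2.54% (1.95% to 3.25%) of ND and 3.68% (2.77% to 4.78%) of HFD cells with UMIs of both Pecam1 and Cdh5, endothelial genes of cells that should lack it. Free RNA and mixed barcodes were not told apart there, and up to 2.42% and 2.88% of UMIs of such a cell came from S100a8 and S100a9. Those cells were deeper, at medians of 4268 and 5610.5 UMIs, than the members, at 2067 and 3713. Il1r2, the decoy receptor for interleukin-1, and Wfdc21, a secreted protein gene, are neutrophil genes that the rule did not use. Il1r2 was at 1911 (1729 to 2106) CPM in ND members against 44.2 CPM in ND monocytes, and Wfdc21 at 2174 (1981 to 2382) CPM against 0 UMIs there. In HFD members Il1r2 was at 699 CPM and Wfdc21 at 1994 CPM, against 94.5 and 3.50 CPM in HFD monocytes. Of markers of other leukocytes, the 4 dendritic cell genes had 0 UMIs in the members of both libraries. The 6 monocyte genes had 56 UMIs in ND, 31 of them Ly6c2, and 6 in HFD, with F13a1, Ccr2 and Ms4a6c at 0 in both. The T and NK cell list had 3 ND and 0 HFD UMIs, and the B cell list 12 ND and 28 HFD UMIs, the latter in 1 cell. The macrophage list had 24 and 42 UMIs and the class II list 62 and 88, or 292 and 2279 CPM.

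**Figure D1:**
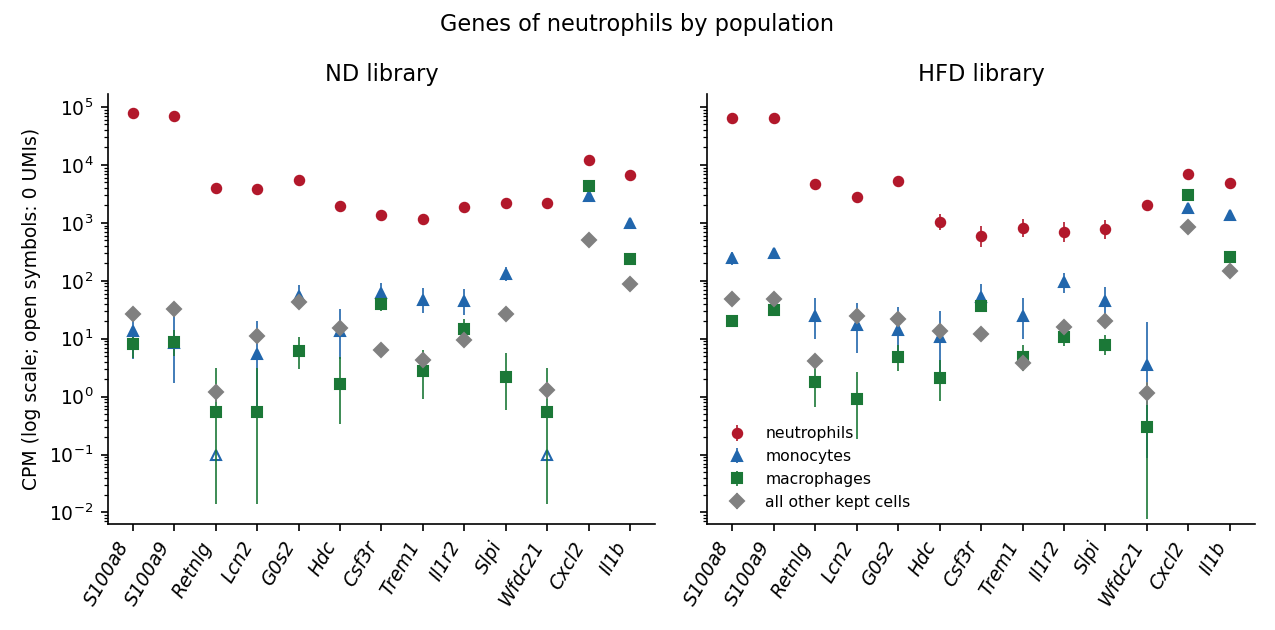
CPM on a log scale of 13 genes in neutrophils, monocytes, macrophages and all other kept cells of each library, with exact 95% Poisson intervals as bars and open symbols for 0 UMIs. The neutrophils lie highest for each gene shown, Cxcl2 and Il1b are also found in monocytes and macrophages, and the first 8 genes from the left were used to choose the cells.

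The limits of the rule separated most cells clearly in ND and less so in HFD. The members nearest to the limit held 3.21%, 3.48% and 3.51% of UMIs from S100a8 and S100a9 in ND and 3.59%, 3.87% and 7.07% in HFD. Of kept cells with at least 2 of the 6 further genes, those just below it held 2.92%, 2.65% and 2.64% in ND. In HFD they held 2.88%, 2.56% and 2.47%. Between 1% and the limit were 12 ND and 11 HFD cells of this kind, so that in HFD more lay in this band than above it. Each kept cell that met the limit had at least 3 of the 6 further genes in ND and at least 5 in HFD. A UMI of the leukocyte gene Ptprc (CD45) was found in 71 of 78 ND and 9 of 9 HFD members. No member barcode occurred among the kept cells of the other library, and 1 kept barcode was shared by both libraries.

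Of the cells that passed the filter, neutrophils were 1.44% (1.14% to 1.79%) in ND and 0.329% (0.150% to 0.623%) in HFD. The difference was smaller without the filter. Then the gene part of the rule was met by 130 of 10234 ND barcodes, or 1.27% (1.06% to 1.51%), and by 129 of 14225 HFD barcodes, or 0.907% (0.758% to 1.08%). These are shares of barcodes and not of cells. The shallowest barcode had 633 UMIs in ND and 1162 in HFD, and the median barcode had 871 and 590 genes. The filter removed 52 of these in ND and 120 in HFD. All 52 and all 120 were above 30% mitochondrial UMIs, and 1 in each library also had fewer than 200 genes. Those removed had medians of 34.5% mitochondrial UMIs in ND and 47.8% in HFD. The libraries also differed in airway RNA, with the airway club cell list at 12069 CPM in other kept ND cells and 0.583 CPM in HFD. Whether some ND neutrophils came from airway tissue was not tested.

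The mitochondrial limit took a larger share of neutrophil barcodes than of other barcodes in HFD, and not in ND. In HFD, 6.98% (3.24% to 12.8%) of the barcodes that met the gene part passed the filter, against 19.4% (18.7% to 20.03%) of the others. In ND the shares were 60% (51.0% to 68.5%) and 52.8% (51.9% to 53.8%). Over all barcodes, mitochondrial genes held a median of 27.2% of UMIs in ND and 50.8% in HFD. Between 20% and 30% mitochondrial UMIs lay 58 of the neutrophil barcodes in ND and 8 in HFD, between 30% and 40% lay 44 and 19, and between 40% and 50% lay 5 and 53. The ND neutrophil barcodes were thus densest around the limit and the HFD ones well above it. The depth of the removed barcodes differed less between the libraries, at medians of 1794.5 UMIs in ND and 2083 in HFD. The members had medians of 2067 and 3713 UMIs, so the HFD barcodes that passed were deeper than those removed. How far damaged cells, free mitochondrial RNA or the handling of the samples set these shares was not tested.

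**Figure D2:**
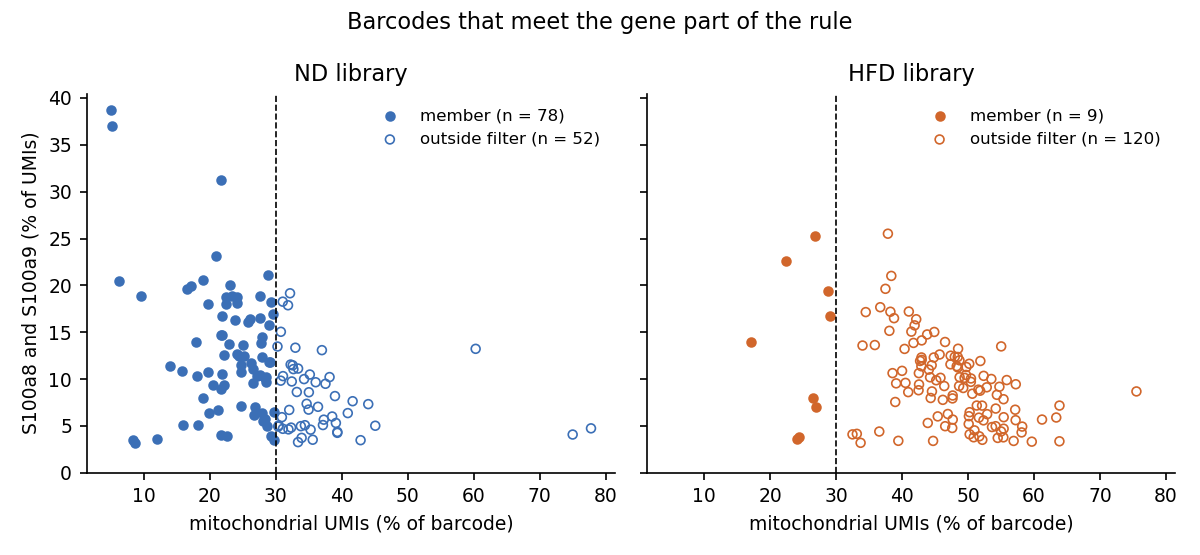
Each point is a barcode that met the gene part of the rule, by its mitochondrial share (x, percent of UMIs) and its share of S100a8 and S100a9 (y, percent of UMIs), with filled points for members, open points for barcodes outside the filter and a dashed line at 30%. In HFD, 120 of 129 barcodes lie right of the line, and in ND 52 of 130 do.

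A few members carried most of the RNA of 5 granule genes. Camp (cathelicidin), Ngp (neutrophilic granule protein), Ltf (lactoferrin), Chil3 (a chitinase-like protein) and Cd177 (a surface protein of granules) together held at least 1% of the UMIs in 3 ND members and 1 HFD member, a group of genes and a limit chosen after their values were seen. These 3 ND cells held 3375 of the 3386 UMIs of the 5 genes in ND members, or 99.7%, and the HFD cell held 384 of 425, or 90.4%. Their shares were 5.44% to 13.1% in ND and 8.66% in HFD, against at most 0.188% and 0.403% in the other members. No UMI of the 5 genes was found in 68 of 78 ND and 4 of 9 HFD members. Outside the filter, 1 more HFD barcode reached 3.27%.

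Il1b was at 0 UMIs in each of these 5 barcodes, while 74 of the other 75 ND members and 8 of the other 8 HFD members had it. The 3 ND cells had 623, 399 and 556 UMIs of Camp and 542, 323 and 435 of Ngp. The HFD cell had 92 of Camp and 222 of Ngp. Cxcl2, a neutrophil-attracting chemokine, had 0 UMIs in these ND cells, while the HFD cell had 17. S100a8 was at 173654 CPM in the 3 ND cells against 55717 CPM in the other ND members, and S100a9 at 111128 against 61778 CPM. Lcn2, the rule gene that is also a granule gene, was at 15919 against 1101 CPM. Retnlg ran the other way in ND, at 230.3 against 4827 CPM, but not in HFD, at 7897 against 4271 CPM.

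The 3 ND cells were deep. They held 18.4% of all UMIs of ND members, with 6474 to 21278 UMIs each against a median of 2059 in the others. Their mitochondrial share was 4.96% to 6.17%, below each of the other ND members, where the lowest was 8.42%. The HFD cell, in contrast, had 22.4% mitochondrial UMIs and 4432 UMIs, of which 438 were from haemoglobin genes, and the deepest ND cell had 222 UMIs of endothelial genes. Cell-cycle genes were seen in the ND cells, with 14 of 16 UMIs of Mki67, a proliferation marker, and 153 of 286 of Hmgb2, a chromatin protein gene. Genes of primary granules, which are made earliest, were absent or nearly so: Mpo, Elane and Ctsg had 0 UMIs in the members of both libraries, and Ms4a3 had 5 in ND.

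**Figure D3:**
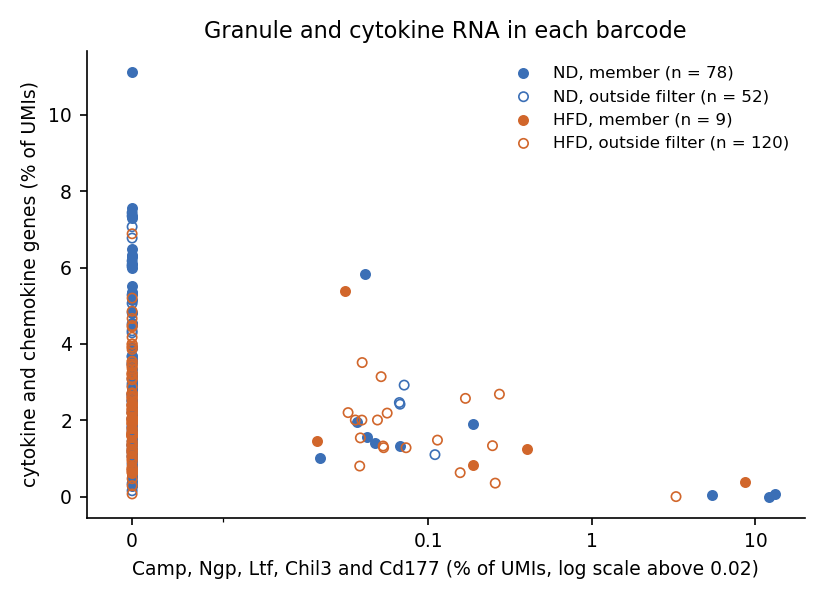
Each point is a barcode, by its share of UMIs from Camp, Ngp, Ltf, Chil3 and Cd177 (x, percent, log scale above 0.02) and from the 22 cytokine and chemokine genes (y, percent), by library and filter. The 5 barcodes at 1% or more of granule genes have at most 0.384% of cytokine genes.

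Camp, Ngp and Ltf lie on chromosome 9 and were found together in the same 5 barcodes, so their promoters are shown as the 250 bases before the start of each gene (RefSeq, GRCm38.p6, gene strand, 5′ to 3′). Capitals mark the letters TTNNGCAA or their reverse complement TTGCNNAA, part of the motif of C/EBP factors, which act in granulocyte precursors. Of 32851 promoters of this length, 9.56% hold it.
Ngp, chr9:110419558-110419807, plus strand: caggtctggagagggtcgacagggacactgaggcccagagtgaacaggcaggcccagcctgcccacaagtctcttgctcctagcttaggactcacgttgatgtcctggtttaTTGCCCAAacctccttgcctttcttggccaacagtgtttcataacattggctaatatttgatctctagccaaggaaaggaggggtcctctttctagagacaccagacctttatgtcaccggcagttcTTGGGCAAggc
Ltf, chr9:111019042-111019291, plus strand: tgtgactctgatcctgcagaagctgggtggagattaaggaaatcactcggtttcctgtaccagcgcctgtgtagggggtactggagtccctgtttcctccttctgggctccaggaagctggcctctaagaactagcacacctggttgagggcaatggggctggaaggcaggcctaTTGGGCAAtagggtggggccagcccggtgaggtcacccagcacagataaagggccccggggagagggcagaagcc
Camp, chr9:109849457-109849706, minus strand: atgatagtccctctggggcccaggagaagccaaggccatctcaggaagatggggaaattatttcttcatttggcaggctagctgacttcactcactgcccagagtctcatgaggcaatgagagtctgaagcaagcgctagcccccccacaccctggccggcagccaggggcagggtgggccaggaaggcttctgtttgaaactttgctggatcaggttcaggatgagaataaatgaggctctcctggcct
Ngp holds the letters at 2 places, starting 138 and 11 bases before its start, and Ltf at 1 place, 75 bases before. Camp does not hold them in this window. Of the 15 genes of the secondary and tertiary granule list, 12 had a promoter in the table and 6 of these held the letters. The letters were chosen after matches of several related patterns had been looked at, and a match is a description, not a site of binding.

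The cytokine RNA of the members was mainly Cxcl2 and Il1b. Both were found in nearly all members below the 1% limit of granule genes set above. Those members were not free of granule RNA, as Lcn2 had UMIs in 46 of 75 of them in ND and 6 of 8 in HFD. Il1b was at 6678 (6335 to 7035) CPM in ND and 4972 (4293 to 5727) CPM in HFD members, against 976 and 1368 CPM in monocytes and 234 and 256 CPM in macrophages. Cxcl2 was at 12114 (11650 to 12591) and 7069 (6256 to 7960) CPM, against 4387 and 3052 CPM in macrophages. The median ND member held 12180 CPM of Cxcl2 and the median HFD member 3997 CPM, within a range of 0 to 56741 in ND. Cxcl2 and Il1b varied together, with a Spearman rho of 0.54 over 78 ND members thinned to 1000 UMIs each. The summed granule list and the summed cytokine list had a rho of -0.36 there, and S100a8 with S100a9 against the cytokine list -0.41. Cells of 1 library share their free RNA, and shares of a fixed total can oppose each other, so these values are descriptions. Over the 9 HFD members, S100a8 with S100a9 against the cytokine list was at 0.093, and Cxcl2 with Il1b at 0.86. Over all thinned barcodes that met the gene part, the granule and cytokine lists were at -0.18 (128 ND) and -0.13 (129 HFD). S100a8 with S100a9 against the cytokine list was there at -0.29 in ND and 0.026 in HFD.

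Ccl4, a chemokine for monocytes and T cells, was concentrated in few cells. It had UMIs in 18 of 78 ND members and 4 of 9 HFD members, and the richest cell held 31.7% of its UMIs in ND and 44.1% in HFD. Its sums were 847 (728 to 980) CPM and 2874 (2365 to 3462) CPM. Il6 and Il10 were at 0 UMIs in the members of both libraries. Tnf was at 94.1 (57.5 to 145) CPM in ND, with 20 UMIs in 10 members. It had 0 UMIs in HFD, which allows up to 95.5 CPM, so a difference was not detectable at this depth.

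Between the diets, the HFD members had lower Nlrp3, Ptgs2, Slpi and Junb and higher haemoglobin genes, Fabp4, Cd36 and Ccl4. Of these, Nlrp3, Ptgs2, Slpi, Junb and Fabp4 were within 2-fold when barcodes outside the filter were counted over non-mitochondrial UMIs, at 0.00086, -0.08, 0.03, -0.24 and 0.99. Of 271 genes with at least 100 UMIs over both libraries and at least 4 in each, 10 were at least 2-fold higher (3.69%) and 48 at least 2-fold lower (17.7%) in HFD, and the median log2 ratio of HFD over ND was -0.40. Past 2-fold is a rule of size and not a test. The minimum sums 212483 ND and 38617 HFD UMIs, so a gene of equal CPM meets it mostly through ND. The balance of higher and lower genes depends on it. With 1 UMI in each library as the minimum, 1665 were higher and 410 lower of 4629 genes. Of the 48 lower genes, 38 rested on 20 or fewer HFD UMIs.

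The 10 lowest ratios and the genes with few UMIs in HFD were as follows. Nlrp3, the inflammasome sensor, had 191 UMIs in 52 ND members and 5 in 4 HFD members, a log2 ratio of -2.80 (-4.43 to -1.55). Ptgs2, the prostaglandin synthase also called COX-2, had 246 UMIs in 54 cells and 11 in 4 cells, a log2 ratio of -2.02 (-3.04 to -1.16). The lower genes also held Rnf149 at -2.37, Ndel1 at -2.15, Cdk2ap2 at -2.12, Tiparp at -1.90 and Ier3, an early stress gene, at -2.14. Tmsb10, an actin-binding thymosin, was at -2.25, and Hmgb2 had 286 and 13 UMIs. Gsn, which encodes the actin-severing protein gelsolin and is abundant in fibroblasts, was at -3.21 (-4.85 to -1.97), and a single ND cell held 57.7% of its 255 ND UMIs. Dcn, a fibroblast gene, had 109 UMIs in 8 ND members and 0 in HFD, with 74.3% in a single cell. Col1a2 had 85 and 1, Cytip 77 and 3, Cd300ld 75 and 3, and Hmgn2 75 and 2 UMIs.

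By gene list, calls in the lists of neutrophil functions were lower, apart from Ccl4, the 1 of 4 cytokine genes past 2-fold. The erythroid list (3 of 3), the endothelial list (Fabp4, 1 of 1) and the lipid storage and efflux list (Cd36, 1 of 1) had higher genes and no lower ones. Lists of 1 to 9 genes are too short to set against the 17.7% above. That share also counts 12 mitochondrial and 45 ribosomal protein genes, of which 0 were lower. Of the transcription factors of granulocytes, 3 of 4 tested were lower, namely Spi1 (-1.10), Cebpb (-1.04) and Mxd1 (-1.65), with a list median of -1.07. Without the filter over non-mitochondrial UMIs, 0 of 6 were lower, with a median of -0.03, and Mxd1 was at 0.28. Of the immediate early genes, 3 of 8 were lower, Junb at -1.49, Jund at -1.28 and Fosb at -1.12. Of receptors for chemoattractants and growth factors, Il1r2 was lower at -1.45. Csf3r, at -1.21, made it 2 of 2 but is a rule gene and supports nothing here. Adhesion genes had 2 of 2 lower, Selplg (the ligand of P-selectin) at -1.24 and Cd44 at -1.08. Without the filter over non-mitochondrial UMIs, Csf3r was at 0.29, Il1r2 at -0.15, Selplg at 0.20 and Cd44 at -0.08. Pattern and Fc receptors had 2 of 7 lower, Clec4d and Nlrp3, and the NF-kB feedback list 2 of 7, Zfp36 and Ier3. Of further neutrophil markers, Slpi was at -1.52 and 3 of 7 were lower in all. In the redox and iron list 1 of 7 was lower, Slc7a11, the cystine transporter, at -1.59. In the secondary and tertiary granule list, Camp at -1.61 and Chil3 at -1.68 were the 2 of 9 that were lower. With each cell given equal weight they were at 0.35 and 0.39. In the cycling list H2afz at -1.07 and Hmgb2 were lower, with 116 of 173 and 153 of 286 ND UMIs in those 3 cells, and H2afz was at 0.095 without the granule-rich cells. Of the actin and S100 list 2 of 9 were lower, Actb at -1.03 and Tmsb10, of the survival list 1 of 2, Pim1, and of the lipid mediator list 1 of 3, Ptgs2. The 3 NADPH oxidase genes tested were within 2-fold, as were the 2 of glycolysis and the 2 of heat shock, and 3 of the 4 interferon-induced genes tested, with Slfn4 at -1.03. Of the 8 rule genes, which describe the choice of members, Csf3r alone passed 2-fold. Without the filter over non-mitochondrial UMIs, no call of the receptor, adhesion, NF-kB, immediate early and granulocyte factor lists was kept. There Slc7a11 was at 0.15 and Slfn4 at 0.14.

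The 10 higher genes included those of red cells and endothelium. Hba-a2, Hba-a1 and Hbb-bs, haemoglobin genes of red cells, had 298, 304 and 839 UMIs in HFD against 6, 8 and 19 in ND, and 2 HFD members held 1053 and 438 of the haemoglobin UMIs. In all other kept cells the erythroid list was at 3946 CPM in ND and 26586 CPM in HFD. Haemoglobin RNA was thus higher in HFD outside the neutrophils too. Fabp4, the fatty acid binding protein of capillary endothelium, was at 10255 CPM in HFD and 2184 CPM in ND members. It was at 15856 and 11811 CPM in all other kept cells. Cd36, a fatty acid transporter, had 87 UMIs in 6 HFD members, 57.5% of them in 1 cell, and 62 in 8 ND members. Psap, a lysosomal protein gene, had 73.9% of its 69 HFD UMIs in 1 cell. Ccl4 at 1.76 (1.41 to 2.11), Ifitm6 at 1.44, Sgk1 at 1.26 and Gm42418 at 1.05 completed the 10. Without the filter Ifitm6 was at -0.18, Sgk1 at -0.37 and Gm42418 at -0.10 over all UMIs. Over non-mitochondrial UMIs they were then at 0.25, 0.07 and 0.33.

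RNA of other cell types was frequent in the 9 HFD members. More than 1% of UMIs from markers of other cells, the monocyte list left aside, were found in 6 of 9 HFD members and 7 of 78 ND members. UMIs of both Pecam1 and Cdh5 were found in 5 of 9 and in 6 of 78. In HFD the erythroid list had 1512 UMIs, with Hbb-bs highest, the endothelial list 516, with Fabp4 highest at 396, and the macrophage list 42, of which 1 cell held 38. Smooth muscle markers had 0 HFD UMIs. The airway club cell list had 42 UMIs in 30 of 78 ND members and 0 UMIs in HFD members. In ND, 1 cell held 222 of 639 UMIs of the endothelial list, and 1 held 251 of 580 of the fibroblast list. Among the barcodes outside the filter such RNA was rarer, with 0 of 52 in ND and 4 of 120 in HFD above 1%. Of the members, 8 in ND and 1 in HFD were among the 6% highest doublet scores of their library. Without the barcodes above 1% of markers of other cells, 71 ND and 3 HFD members remained, and 4 genes were higher (2.58%) and 24 lower (15.5%) of the 155 that could still be tested. The part of this RNA in the ratios of single genes was not tested.

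**Figure D4:**
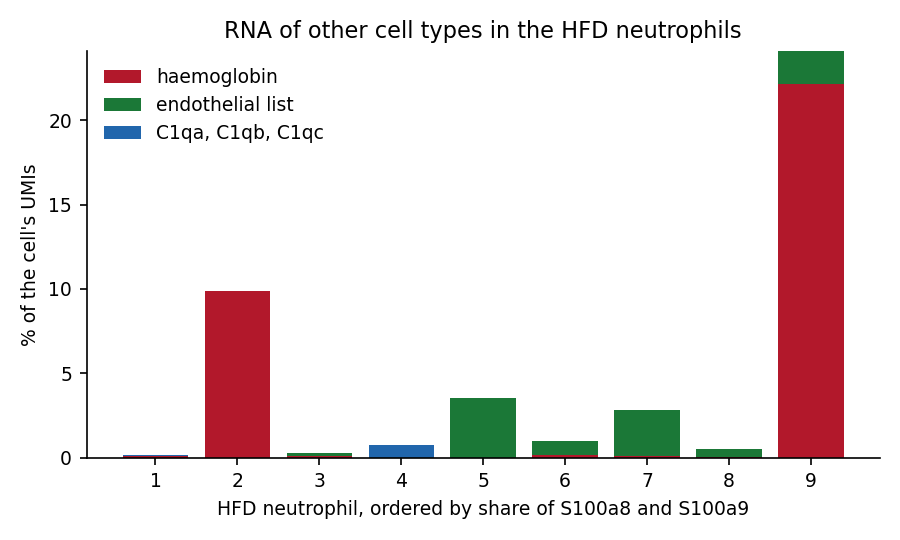
Bars give the percent of UMIs of each of the 9 HFD members that came from haemoglobin genes, the 6 endothelial genes and the 3 C1q genes, with cells ordered from the highest to the lowest share of S100a8 and S100a9. Haemoglobin reaches 22.1% in the last cell and 9.88% in the second, and endothelial genes reach 3.52% in the fifth.

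When the barcodes outside the filter were counted as well, Nlrp3, Ptgs2, Slpi and Junb no longer differed by 2-fold. This setting, chosen after the data were seen, compares 130 ND with 129 HFD barcodes, and UMIs were scaled without mitochondrial genes because the mitochondrial share differed. Of 525 genes tested, 12 were higher (2.29%) and 16 lower (3.05%), with a median log2 ratio of -0.0037. Scaling bore on these counts. Over all UMIs the same barcodes gave 11 higher (2.04%) and 48 lower (8.92%) of 538 genes, and the members alone over non-mitochondrial UMIs gave 10 higher (3.86%) and 39 lower (15.1%) of 259. Nlrp3 and Ptgs2 were at -0.43 and -0.52 over all UMIs without the filter, and at -2.70 and -1.93 in the members over non-mitochondrial UMIs. Nlrp3 had 284 and 202 UMIs and a log2 ratio of 0.00086 (-0.27 to 0.27) over non-mitochondrial UMIs without the filter, Ptgs2 was at -0.08 (-0.30 to 0.13), Slpi at 0.03, Junb at -0.24 and Csf3r at 0.29 (0.08 to 0.49). None of the tested genes of the receptor, adhesion, NF-kB, immediate early or granulocyte factor lists was past 2-fold, over 11, 5, 8, 11 and 6 genes. Of the 259 genes tested both ways, 48 were lower in members over all UMIs. Without the filter over non-mitochondrial UMIs, 7 of these were also lower and 15 had a ratio above 0. This comparison changes the scale as well as the barcodes. Over 30% mitochondrial UMIs were carried by 52 of the ND and 120 of the HFD barcodes, and the damage that may go with it was not measured.

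**Figure D5:**
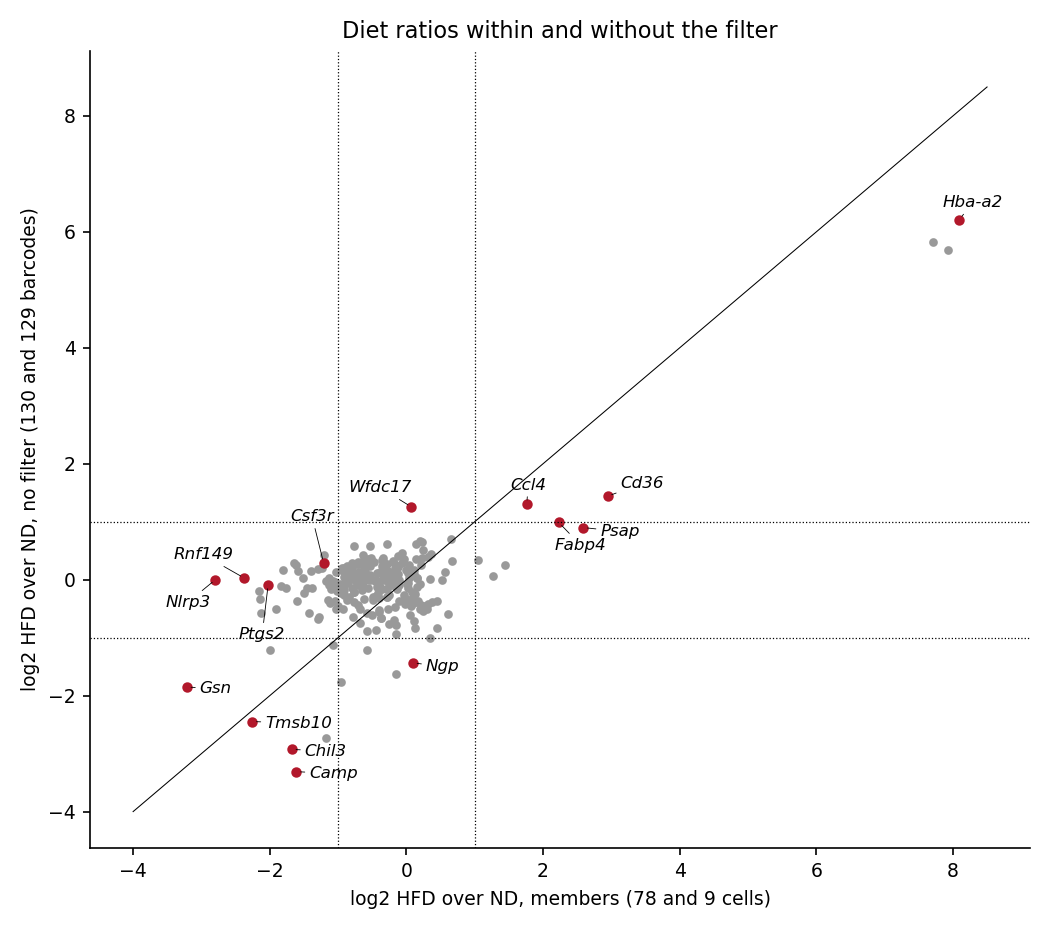
Each point is 1 of 259 genes, by its log2 ratio of HFD over ND in members over all UMIs (x) and in all barcodes that met the gene part of the rule, over non-mitochondrial UMIs (y). Dotted lines are at 2-fold and a solid line marks equality. The points spread along x and are narrow along y, with Nlrp3, Rnf149 and Ptgs2 low in members and near 0 without the filter, and Gsn, Tmsb10, Camp and Chil3 low in both.

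Wfdc17 and Slc6a6 were higher in HFD in this wider comparison and in many barcodes. Wfdc17, a secreted protein gene of myeloid cells, was at 3537 (3301 to 3786) CPM of non-mitochondrial UMIs in ND and 8450 (8014 to 8902) CPM in HFD, a log2 ratio of 1.26 (1.13 to 1.38), with UMIs in 105 of 130 and 109 of 129 barcodes. In the members alone its ratio was 0.07 (-0.27 to 0.40), and in all other kept cells it was 2.15. Slc6a6, the taurine transporter, had a ratio of 1.58 (1.08 to 2.09), with UMIs in 36 and 61 barcodes, and of 2.37 in the other kept cells. Both genes were thus higher in HFD outside the neutrophils too, and free RNA was not told apart from RNA of the neutrophils. Ccl4 was at 1.30 (1.07 to 1.54), with UMIs in 26 and 49 barcodes and a ratio of 0.37 in other kept cells. Over all UMIs of the same barcodes, Ccl4 was at 0.87, within 2-fold, and Cd36 at 1.01. Cxcl3, a neutrophil-attracting chemokine, was at 1.41 (0.80 to 2.04) in 8 and 15 barcodes, but at -1.93 in members, on 21 and 1 UMIs. Cd36 was at 1.44, with UMIs in 14 and 27 barcodes and 36.0% of its 139 HFD UMIs in 1 of them.

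Camp at -3.31 (-3.60 to -3.04), Chil3 at -2.93, Ngp at -1.43 and Ltf at -1.01 were lower in HFD, on 3 to 6 ND barcodes and 2 to 15 HFD barcodes. The granule-rich barcodes numbered 3 in ND and 2 in HFD, and these ratios turned with the barcodes counted. In members Ngp was at 0.098 and Ltf at 0.34, and Ngp was at 1.99 in members with equal weight of cells. Tmsb10 was at -2.45 (-3.33 to -1.66), with UMIs in 32 and 13 barcodes, and at -0.74 in other kept cells. Cd74, the class II invariant chain, was at 2.57, but 52.7% of its 148 HFD UMIs lay in 1 barcode. Ctsb, a lysosomal protease, was at 1.53 with 39.8% in 1 barcode, and Mmp8, the neutrophil collagenase, at 1.11 with 26.1%. Dcn, Mgp, Gsn, Sparc and Timp3, genes of matrix-forming cells, were lower at -3.82 to -1.62. When barcodes with over 1% of markers of other cells were left out, 123 ND and 119 HFD barcodes remained, and 7 genes were higher (1.63%) and 5 lower (1.17%) of 429. The higher genes were Hbb-bs (3.07), Cd74 (1.97), Fabp4 (1.32), Wfdc17 (1.17), Slc6a6 (1.13), Ccl4 (1.07) and the metallothionein Mt1 (1.01), which was at -0.90 in members. Haemoglobin RNA was also higher in the other kept HFD cells, as given above. The lower genes were Camp (-5.32), Chil3 (-3.59), Ngp (-2.83), Ltf (-2.16) and the chemokine receptor Cxcr4 (-1.07), and Gsn was at -0.41. Dcn at -1.08 (17 and 6 UMIs), Mgp at -0.99, Sparc at -0.13 and Timp3 at 0.75 were then below the minimum of 100 UMIs, as were Cd36 at 1.53 and Cxcl3 at 1.61. This step left 2 ND and 1 HFD granule-rich barcodes, on which the ratios of Camp, Chil3, Ngp and Ltf rest. Wfdc17, Slc6a6, Cxcl3 and the other genes of this comparison were named after their values had been seen.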

How the data were processed

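Each diet gave 1 droplet library of single cells. The authors deposited a raw UMI count per gene and barcode, made with Cell Ranger (file header: 3.0.1) and the build mm10. The submitters' processing notes also name Seurat 3.2.0 and R 4.0.0, with an annotation not given in the sources used here. The counts list 31053 genes before any filter on cells. The ND library held 32806635 UMIs in 10234 barcodes and the HFD library 41305446 in 14225, and kept cells had medians of 3732.5 and 5336 UMIs.

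UMIs were summed over members and divided by their total, as CPM. Intervals are Poisson for CPM, Clopper-Pearson for shares and conditional binomial for log2 ratios. Named genes were the rule genes, the 20 with most UMIs, the 10 largest rises and falls, the 5 with most UMIs among those with 3 or fewer in 1 library, and list members past 2-fold or with most UMIs. The members and lists were chosen with earlier results of these data known. Doublets were scored with Scrublet (scanpy 1.11.5, expected rate 6%), which marked 0 ND cells and 1 HFD cell, with 0 members among them, and no cell was removed. Python 3.11.15, numpy 2.4.6 and scipy 1.17.1 were used, and the ratios were tested on simulated data.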

Additional observations from a re-analysis of the deposited data

Results flagged for a closer look

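Barcodes outside the filter that met the gene part of the rule numbered 52 in ND and 120 in HFD. They were chosen by neutrophil genes, so the presence of these genes is no result. They stood out by their number, in data that the comparison of members does not use. Their median share of S100a8 and S100a9, at least 3% by the rule, was 7.19% of UMIs in ND and 9.22% in HFD. Of them, 1 HFD barcode was granule-rich.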

How the results depend on the processing

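No paired analysis was possible because each diet has 1 library. The neutrophil share of ND cells became 0.709% and 0.566% with mitochondrial limits of 10% and 20%, 0.979% with at least 10% of UMIs from S100a8 and S100a9, and 4.64% of cells with a Ptprc UMI. The HFD share became 0% (0 of 112 cells), 0.0933% (1 of 1072), 1.29% without a mitochondrial limit, 0.730% at 1% of S100 UMIs, 0.110% without barcodes over 1% of other markers and 1.16% of Ptprc cells. The other settings kept the shares within their intervals. The ND share stayed above the HFD share in each.

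Genes higher and lower by 2-fold numbered 5 and 18 of 92 tested in cells thinned to 1000 UMIs, 4 and 24 of 155 without barcodes of other markers, 3 and 19 of 84 at a 20% limit, 26 and 79 of 506 at a minimum of 50 UMIs, 5 and 20 of 130 at 200, and 1665 and 410 of 4629 with 1 UMI in each library, against 10 and 48 of 271. Fewer genes were tested in several of these settings. They numbered 7 and 26 of 163 at 10% of S100 UMIs, 11 and 65 of 188 without the highest doublet scores, 12 and 68 of 271 with equal weight of cells, and 10 and 32 of 271 with mitochondrial, haemoglobin and ribosomal genes left out of the total. With settings added after seeing the data, lower genes without the filter numbered 48 of 538 over all UMIs and 16 of 525 over non-mitochondrial UMIs. On the latter scale they numbered 7 without granule-rich barcodes and 5 without barcodes of other markers. Members over non-mitochondrial UMIs gave 39 lower of 259, and members without granule-rich cells gave 8 higher and 59 lower. These settings were run on 62 named genes, Dcn having no ratio with 0 HFD UMIs. Of these, 45 were past 2-fold as reported and 17 were not. Among the 45, direction turned with equal weight of cells for Camp (0.35), Chil3 (0.39) and H2afz (0.058), and in thinned cells for the same genes (0.50, 0.79 and 0.59). It turned for H2afz without the highest doublet scores (0.77) and without granule-rich cells (0.095), for Ifitm6 (-0.053) and Col1a2 (0.53) without other markers, and for Psap (-0.19) at a 20% limit. Without the filter it turned for Ifitm6 (-0.18), Sgk1 (-0.37) and Gm42418 (-0.10). Over non-mitochondrial UMIs without the filter it turned for Nlrp3 (0.00086), Rnf149 (0.029), Csf3r (0.29), Slpi (0.034), Selplg (0.20), Slfn4 (0.14), Mxd1 (0.28) and Slc7a11 (0.15). With barcodes of other markers also left out, it turned for Ifitm6 (-0.18), Nlrp3 (0.025), Csf3r (0.16), Selplg (0.098), Slfn4 (0.17), Mxd1 (0.25) and Slc7a11 (0.089), and with granule-rich barcodes left out for Csf3r (0.098), Selplg (0.018) and Mxd1 (0.061). Among the 17 genes within 2-fold, direction turned in 69 of the values, 13 of them over non-mitochondrial UMIs without the filter, where Il1b was at 0.12, Cxcl2 at 0.011, Fth1 at 0.19 and Ngp at -1.43. With equal weight of cells it turned for Lcn2 (0.52), S100a8 (0.065) and S100a9 (0.028), and without the filter over all UMIs for Malat1 (-0.83), Ngp (-1.87) and G0s2 (0.028). Lcn2 was at 1.36 without the highest doublet scores, and without other markers Ngp was at -5.91 and Retnlg at -1.21. The cause was not tested. The direction was kept in 612 values of the 45 genes and 186 of the 17. The depth of 38617 HFD UMIs limits each ratio.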

Other observations

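Ly6g, the surface protein that defines mouse neutrophils in flow cytometry, was sparse in these counts. It had 10 UMIs in 8 of 130 ND barcodes and 45 in 22 of 129 HFD barcodes that met the gene part of the rule. The log2 ratio was 2.66 (1.65 to 3.82) over non-mitochondrial UMIs, on fewer UMIs than the minimum of 100. All other kept cells of both libraries had 0 UMIs of it. On the same scale Retnlg was at 0.65 (0.52 to 0.77), and at 0.21 over all UMIs. The rule used Retnlg to choose these barcodes, so its value only describes them. Cd14, the lipopolysaccharide co-receptor, was at 0.62 (0.47 to 0.77) over non-mitochondrial UMIs, but at -0.28 in members. Alox5ap, which serves leukotriene synthesis, was at 0.71, and at 0.65 in members. These genes were chosen after their values were seen.

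The lipid storage and efflux list had 268 ND and 380 HFD UMIs in the same barcodes. Of its genes, Lpl, lipoprotein lipase, had 18 UMIs in 8 ND and 54 in 28 HFD barcodes, and was at 533 and 1051 CPM in the other kept cells. Abca1, the cholesterol exporter, had 13 UMIs in 11 ND and 33 in 26 HFD barcodes, and was at 157 and 275 CPM there. Ltf was at 90.6 CPM in all other ND cells and 0.117 CPM in the other HFD cells, where the airway club cell list was at 12069 and 0.583 CPM. The source of that Ltf RNA was not tested.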
